A study of Mus musculus with 24 samples.

Results

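The genes described here are 10 markers and regulators of the inhibitory neurons that descend from *Ptf1a*-expressing progenitors of the hindbrain and cerebellum. They were *Ptf1a*, *Prdm13*, *Lhx1*, *Lhx5*, *Pax2*, *Lbx1*, *Gbx1*, *Skor2*, *Slc6a5* and *Sall3*, chosen by name among the 54446 genes counted in 24 libraries. The libraries came from 12 mouse embryos at stage E14.5, each dissected into the secondary prosencephalon (SP), the forebrain part that forms telencephalon and hypothalamus, and the diencephalon, midbrain and hindbrain (DMH). There were 3 embryos for each sex and genotype, *Tfap2b-/-* mutants and their *Tfap2b+/+* littermate controls, which makes 8 conditions of 3 libraries. The mutant allele carries a neomycin resistance cassette under the PGK promoter in an exon of *Tfap2b* in every cell, and heterozygous parents were crossed to obtain the embryos. The strain background is not given in the sources used here. *Tfap2b* encodes the transcription factor AP-2 beta.

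*Ptf1a* is a basic helix-loop-helix factor that acts in a complex with an E protein and RBPJ. In the dorsal hindbrain and spinal cord and in the ventricular zone of the cerebellum it commits progenitors to GABAergic and glycinergic fates at the expense of glutamatergic ones. *Prdm13* is one of its direct targets and represses excitatory genes. The homeodomain and paired-box factors *Lbx1*, *Pax2*, *Lhx1*, *Lhx5* and *Gbx1* are expressed in the postmitotic inhibitory neurons that follow, and not only in them. *Skor2* is a corepressor of Purkinje cells, and *Slc6a5* is the plasma membrane glycine transporter GlyT2 of glycinergic neurons. Caudal *Hox* genes are expressed in the hindbrain behind its first segments and in the spinal cord, and not in cerebellum, midbrain or forebrain.

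Fragments counted on genes numbered 24.7 to 66.8 M per library (median 32.1 M). Levels are counts scaled to library size (CPM) after TMM scaling over the 24 libraries, and a count of 3, taken as the floor, was worth 0.0445 to 0.124 CPM (counting error only). Some libraries went against their labels or stood apart. Female control 2 held 120 CPM (DMH) and 135 CPM (SP) of 4 Y-linked transcripts, against 124 to 201 CPM in males and at most 0.035 CPM in the other female libraries. Female mutant 3, which the study left out after a principal component analysis, held 721 CPM of 7 skeletal muscle markers and 1828 CPM of 5 cartilage markers in DMH, against at most 6.19 and 103 CPM elsewhere in DMH. It is left out of the tests here and its levels are given. *Tfap2b* itself was at 277 to 438 CPM in DMH controls and 50.5 to 55.6 CPM in DMH mutants, and its log2 fold change was -2.76 ± 0.17 (SE) in female DMH (edgeR quasi-likelihood test, adjusted p = 0.00946). In SP it was at 2.78 to 4.90 CPM. Its log2 fold change in mutants there was 0.02 ± 0.14 in females and -0.07 ± 0.23 in males, and it was called in neither sex. The labelled tissues matched 5 telencephalic markers, which summed to 1325 to 2492 CPM in SP and 48.9 to 99.7 CPM in DMH. Which embryos shared a litter was not given, so the p-values measure the spread between these libraries.

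The DMH pieces differed in their *Hox* transcripts. The 15 *Hox* genes summed here are those the paper lists under hindbrain patterning among genes lower in mutant female DMH. They were thus picked by a genotype difference in libraries that are also used here. The sum of these 15 genes of the anterior to middle paralog groups (*Hoxa3* to *Hoxd3*, called the *Hox* sum) was 0.038 CPM in female control 1, 346 in female control 2 and 536 in female control 3. It was 0.952, 0.106 and 453 CPM in female mutants 1, 2 and 3. The male controls held 543, 533 and 418 CPM, and the male mutants 427, 15.02 and 499 CPM. At a limit of 100 CPM, 8 libraries were *Hox*-rich and 4 were *Hox*-poor, and the *Hox*-poor ones were 1 control and 3 mutants. The sets come from measured *Hox* counts and not from labels. Genotype is therefore unevenly spread over them, and with both female mutants of the tests being *Hox*-poor, the *Hox* content and the genotype can hardly be separated in female DMH.

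The promoters of genes that went with the *Hox* content and of genes that did not are shown first, because *Tfap2b* encodes a DNA-binding factor and *Ptf1a* acts through E-boxes and RBPJ sites. Promoters of 5 of the 10 genes (*Ptf1a*, *Prdm13*, *Lhx1*, *Pax2* and *Slc6a5*) were matched in RefSeq on GRCm38.p6, and *Lbx1*, *Lhx5*, *Gbx1*, *Skor2* and *Sall3* were not matched. The 250 bases before 1 annotated start are printed 5′ to 3′ on the strand of the gene, with capitals for matches on either strand to the AP-2 sequence GCCNNNGGC, the E-box CAGCTG or the RBPJ core TGGGAA (reverse complement TTCCCA). No match overlapped another. *Pax2* lies at chr19:44755502-44755751 (+ strand), *Slc6a5* at chr7:49910049-49910298 (+ strand), *Prdm13* at chr4:21685964-21686213 (- strand) and *Lhx1* at chr11:84525535-84525784 (- strand).
Pax2: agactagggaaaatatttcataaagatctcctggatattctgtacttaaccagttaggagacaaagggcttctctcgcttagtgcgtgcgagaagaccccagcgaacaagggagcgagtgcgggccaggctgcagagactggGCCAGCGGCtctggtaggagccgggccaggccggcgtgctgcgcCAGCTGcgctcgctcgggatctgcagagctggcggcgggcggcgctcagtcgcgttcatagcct
Slc6a5: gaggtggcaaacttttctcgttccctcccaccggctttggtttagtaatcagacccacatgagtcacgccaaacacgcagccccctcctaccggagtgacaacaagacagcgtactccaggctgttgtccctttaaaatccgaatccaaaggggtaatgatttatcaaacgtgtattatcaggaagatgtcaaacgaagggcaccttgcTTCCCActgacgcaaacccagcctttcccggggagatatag
Prdm13: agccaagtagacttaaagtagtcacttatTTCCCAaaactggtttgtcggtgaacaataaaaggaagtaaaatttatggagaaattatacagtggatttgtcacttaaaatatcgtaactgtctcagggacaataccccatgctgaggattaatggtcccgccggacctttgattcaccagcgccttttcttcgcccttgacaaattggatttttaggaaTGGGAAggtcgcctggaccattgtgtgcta
Lhx1: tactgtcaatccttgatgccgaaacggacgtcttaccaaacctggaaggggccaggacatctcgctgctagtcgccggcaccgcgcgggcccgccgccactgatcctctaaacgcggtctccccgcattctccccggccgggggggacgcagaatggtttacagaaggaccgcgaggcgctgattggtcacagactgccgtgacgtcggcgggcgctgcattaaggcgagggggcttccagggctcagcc

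*Pax2* held 1 AP-2 match (positions -108 to -100 from the start) and 1 E-box (-64 to -59). It was the only printed window with either of them. *Slc6a5* held 1 RBPJ core match (-41 to -36), *Prdm13* held 2 (-221 to -216 and -30 to -25), and *Lhx1* held none of the 3 sequences. By the gene coordinates given further below, *Slc6a5* begins at 49910146, before the RefSeq start used here, so its match lies inside the gene. The other windows, for *Ptf1a*, for a second start of *Slc6a5* and for the other starts of *Pax2*, held no AP-2 match and no E-box, and 1 RBPJ core match stood in the *Ptf1a* window (-169 to -164) and 1 in that of another *Pax2* start (-149 to -144). Of 32851 mouse promoter windows of this length, 13.7% held the AP-2 sequence, 13% the E-box and 21.6% the RBPJ core. These are letter matches only, and a window without one says nothing about the factor.

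The question of the region comparison is where in the embryonic brain these genes were expressed. Controls were compared with 6 libraries of each region (edgeR with sex as a covariate, false discovery rate under 0.2 and absolute log2 fold change over 0.5). *Prdm13*, *Lhx1*, *Lhx5*, *Gbx1* and *Sall3* had at least 10 counts in every control library of either region, and each was called higher in DMH. *Lbx1*, *Pax2*, *Skor2* and *Slc6a5* had 0 to 12 counts in SP libraries and passed the filter on low counts through DMH alone, so the filter fixed their direction and their calls are a description. Of all 17196 genes tested, 35.9% were called in this comparison and 21.2% were higher in DMH. The median log2 fold change over all genes was -0.0029. *Ptf1a* was not tested because its counts were too low. In a bulk piece, fewer cells of a type and less RNA per cell cannot be told apart.

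*Lbx1*, a homeodomain factor of neurons of the dorsal hindbrain and spinal cord, and *Slc6a5* were nearly confined to DMH. *Lbx1* had 0 to 3 counts and *Slc6a5* 0 to 2 counts in each of the 12 SP libraries, at or under the floor. The median of the DMH controls, 18.6 CPM for *Lbx1* and 17.8 CPM for *Slc6a5*, was at least 177-fold and at least 169-fold higher than the highest floor of an SP control. In female control 1, the lowest DMH control, the same bounds were 7.58-fold and 4.33-fold. *Pax2*, a paired-box factor of inhibitory interneurons and of the midbrain-hindbrain boundary, was at 0.0412 to 0.256 CPM in SP and 4.08 to 47.2 CPM in DMH. *Skor2* was at 0 to 0.287 CPM in SP and 9.94 to 16.1 CPM in DMH. The regions did not overlap for either gene, and no test is given because the filter fixed the direction.

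*Lhx1* and *Lhx5*, LIM-homeodomain paralogs of Purkinje cells and of many other neurons, were present in both pieces. *Lhx1* was at 5.49 to 17.7 CPM in SP and 103 to 141 CPM in DMH, and in controls its log2 fold change was 3.83 ± 0.23 (adjusted p = 1.06e-07). Within SP, 2 libraries stood above the others for *Lhx1*, male control 1 at 15.4 CPM and female mutant 3 at 17.7 CPM, and the other 10 lay between 5.49 and 8.82 CPM. The summed eye and hypothalamic markers *Rax*, *Six6* and 6 others were also highest in these 2 libraries, at 3.79 and 4.43 CPM against 0.453 to 1.83 CPM, and their part in the result was not tested. *Lhx5* was at 5.93 to 13.6 CPM in SP and 50.6 to 84.9 CPM in DMH (log2 fold change 2.77 ± 0.12, adjusted p = 4.06e-10).

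The zinc finger factor *Prdm13* was at 0.409 to 1.90 CPM in SP and 1.25 to 4.76 CPM in DMH (log2 fold change 1.55 ± 0.22 in controls, adjusted p = 1.92e-05). *Sall3*, a zinc finger factor of the spalt family, differed least among the firmly called genes, with 34.0 to 45.6 CPM in SP and 40.9 to 67.5 CPM in DMH (log2 fold change 0.64 ± 0.10, adjusted p = 0.000122). The homeobox gene *Gbx1* was at 1.71 to 7.92 CPM in SP and 1.14 to 13.2 CPM in DMH, and these ranges overlapped. Its log2 fold change of 0.81 ± 0.49 in controls (adjusted p = 0.166) was past the threshold, but not without any single one of 7 of the 12 libraries (adjusted p = 0.231 to 0.373), nor with the embryo, which gave both pieces, as a block (0.78, adjusted p = 0.284). *Ptf1a* itself had 4 to 23 counts in DMH libraries and 0 to 5 in SP libraries, with 7 SP libraries at or under the floor. It passed the filter on low counts only in the fit with the embryo as a block, and through its DMH counts, so no fold against SP is given. Its level of 0.143 to 0.429 CPM in DMH overlapped between the genotypes and between the *Hox* sets over the 12 libraries.

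**Figure D1:**
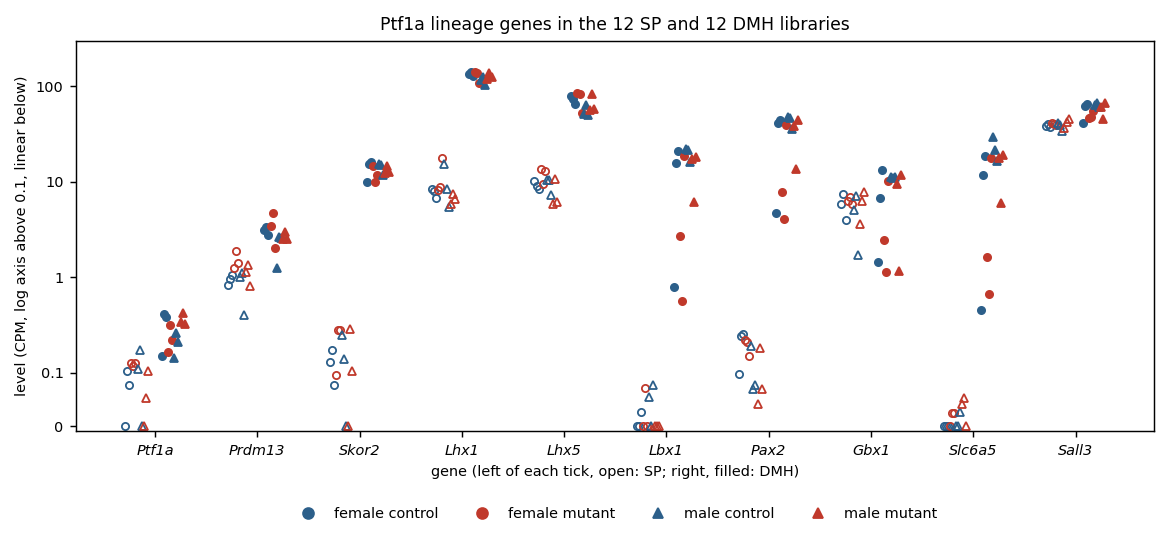
CPM of each gene in the 12 SP libraries (open, left of the tick) and the 12 DMH libraries (filled, right), with circles for females, triangles for males, blue for controls and red for mutants; the y axis is logarithmic above 0.1 CPM and linear below. *Lbx1* and *Slc6a5* lay at or under 0.0766 CPM in SP, and in DMH *Lbx1*, *Pax2*, *Gbx1* and *Slc6a5* spread far more widely than *Lhx1*, *Lhx5*, *Skor2* and *Sall3*.

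Per kb of exon, the scale on which genes can be compared with each other, the median level over the 6 DMH controls was highest for *Lhx1* (31.0 CPM per kb) and *Lhx5* (24.0), whose ranges overlapped. *Sall3* (8.41), *Pax2* (7.92) and *Lbx1* (7.50) followed, with ranges that overlapped from gene to gene. *Skor2* was at 4.81, *Gbx1* at 3.18 and *Slc6a5* at 2.47 CPM per kb, again with overlapping ranges. *Prdm13* (0.638 CPM per kb, range 0.292 to 0.779) and *Ptf1a* (0.156, range 0.0948 to 0.276) were lowest and did not overlap each other, while *Prdm13* and *Slc6a5* did. In the *Hox*-poor libraries the medians were 33.9 for *Lhx1*, 31.1 for *Lhx5*, 6.09 for *Sall3*, 3.90 for *Skor2*, 1.16 for *Pax2*, 0.765 for *Prdm13*, 0.710 for *Lbx1*, 0.375 for *Gbx1* and 0.162 CPM per kb for *Slc6a5*. The median of *Ptf1a* was 0.161 CPM per kb in these libraries, level with *Slc6a5*, and the ranges of both overlapped. There *Skor2* ranked ahead of *Pax2* and *Lbx1*, and *Prdm13* ahead of *Lbx1*, *Gbx1* and *Slc6a5*, although the range of *Prdm13* overlapped those of *Pax2*, *Lbx1*, *Gbx1* and *Slc6a5*.

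The comparison of *Hox*-rich with *Hox*-poor DMH asks which of these genes go with the *Hox* content of the piece. It was fitted over 11 libraries (7 *Hox*-rich, 4 *Hox*-poor) with sex and genotype as covariates. *Lbx1*, *Pax2*, *Gbx1*, *Slc6a5* and *Sall3* were higher in *Hox*-rich pieces and none of the 10 was called lower. The background was 6.89% of 17555 genes called, and 5.60% called higher. The median log2 fold change was 0.55 over the 10 genes and 0.0046 over all genes tested.

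*Lbx1* was at 0.797, 0.568, 2.73 and 6.16 CPM in the 4 *Hox*-poor libraries (female control 1, female mutants 2 and 1, male mutant 2). In the *Hox*-rich libraries it was at 15.8 (female control 2), 21.3 (female control 3), 18.6 (female mutant 3), 22.3, 21.4 and 15.95 (male controls 1 to 3), 17.4 and 18.1 CPM (male mutants 1 and 3). The sets did not overlap, and male mutant 2, with 15.02 CPM of *Hox* transcripts the highest of the *Hox*-poor libraries, was also the highest of them for *Lbx1*. The log2 fold change was 2.67 ± 0.60 (SE), with a 95% interval from 1.27 to 4.07 (adjusted p = 0.0396). Without male mutant 2 it was 3.81 (adjusted p = 0.0226), and with the replicate number as a block *Lbx1* was no longer called (edgeR, adjusted p = 0.327).

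*Slc6a5* was also apart between the sets. It was at 0.456, 0.674, 1.65 and 6.04 CPM in the *Hox*-poor libraries named in the same sequence and at 11.7 to 29.7 CPM (median 18.3) in the 8 *Hox*-rich ones. Female control 2 was the lowest *Hox*-rich library and male control 1 the highest. The log2 fold change was 2.71 ± 0.60, with an interval from 1.31 to 4.12 (adjusted p = 0.0378), and 3.99 without male mutant 2 (adjusted p = 0.0219). With the replicate number as a block *Slc6a5* was no longer called (edgeR, adjusted p = 0.339).

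*Pax2* was at 4.67, 4.08, 7.90 and 13.7 CPM in the *Hox*-poor libraries and at 35.7 to 47.2 CPM (median 42.9) in the *Hox*-rich ones. The sets were apart, but *Pax2* was still at 115 or more counts in every DMH library. The log2 fold change was 2.38 ± 0.36, with an interval from 1.53 to 3.22 (adjusted p = 0.0137), and 3.00 without male mutant 2 (adjusted p = 0.00181). *Pax2* lies on chromosome 19 from 44756045 to 44837871 (GRCm38, + strand) and *Lbx1* on the same chromosome from 45232684 to 45235812 (- strand), and both code for proteins.

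*Gbx1* was at 1.44, 1.14, 2.48 and 1.16 CPM in the *Hox*-poor libraries (female control 1, female mutants 2 and 1, male mutant 2), and all but female mutant 1 lay below the lowest SP library (1.71 CPM). Among *Hox*-rich libraries it was at 6.76 CPM in female control 2 and at 9.57 to 13.2 CPM in the other 7. Unlike *Lbx1* and *Slc6a5*, it was not raised in male mutant 2. The log2 fold change was 2.83 ± 0.32, with an interval from 2.10 to 3.55 (adjusted p = 0.00315).

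*Sall3* differed less but in every library. It was at 40.9, 47.4, 46.1 and 45.0 CPM in the *Hox*-poor and at 55.1 to 67.5 CPM (median 62.9) in the *Hox*-rich libraries, and female mutant 3 was the lowest *Hox*-rich one. The log2 fold change was 0.57 ± 0.07 with an interval from 0.43 to 0.72 (adjusted p = 0.000543), and with female mutant 3 included it was 0.48 (adjusted p = 0.00112), under the fold threshold. The *Hox*-poor level was near that of SP, where *Sall3* was at 34.0 to 45.6 CPM.

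**Figure D2:**
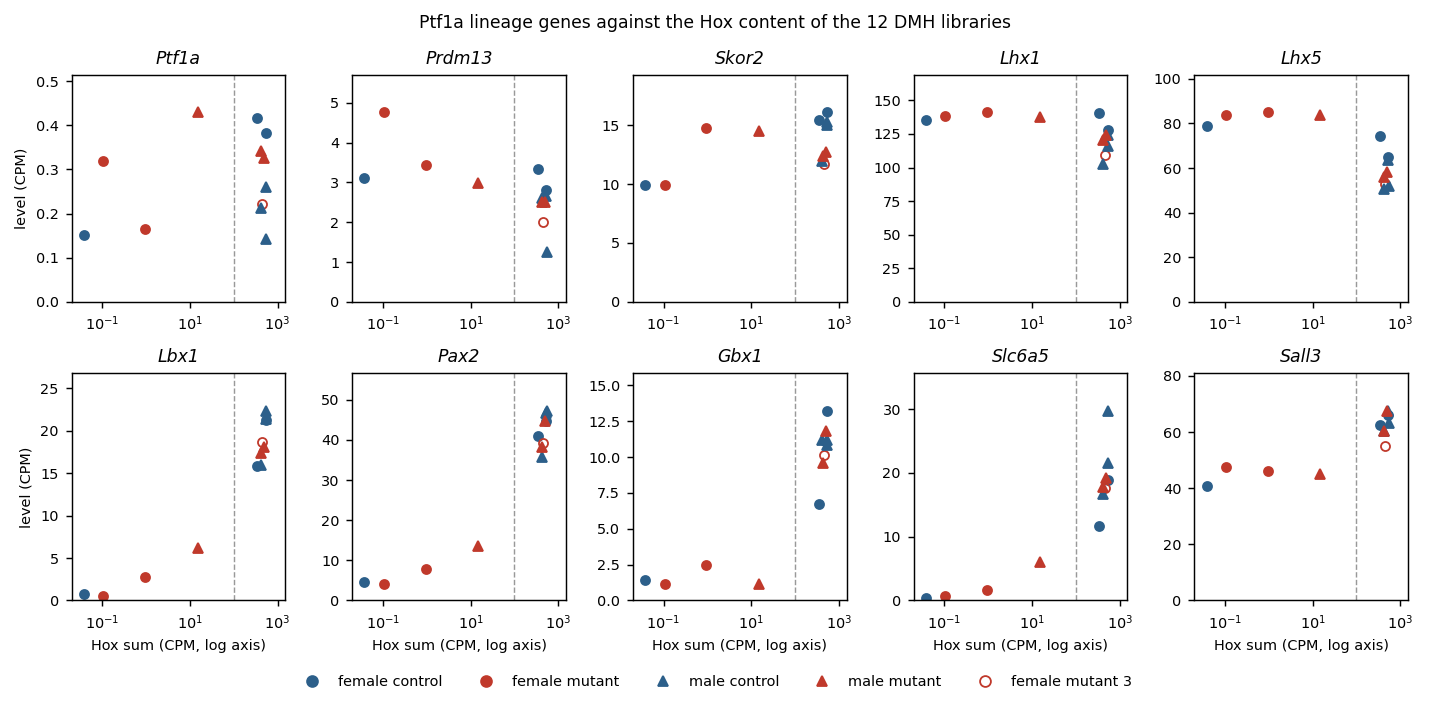
CPM of each gene (y axis, linear from 0) against the *Hox* sum (x axis, CPM, logarithmic) in the 12 DMH libraries, with circles for females, triangles for males, blue for controls, red for mutants, an open circle for female mutant 3 and a dashed line at 100 CPM. *Lbx1*, *Pax2*, *Gbx1*, *Slc6a5* and *Sall3* were higher in all 8 libraries right of the line than in the 4 left of it, and *Lhx5* was lower. The share of all genes that stand apart between these libraries was not computed.

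The other 5 genes were not called. *Lhx5* was at 78.8, 83.7, 84.9 and 83.6 CPM in the *Hox*-poor libraries and at 50.6 to 74.2 CPM (median 57.2) in the *Hox*-rich ones, so the sets did not overlap and the order was the opposite of that of *Lbx1*. Its log2 fold change of -0.33 ± 0.10 (interval -0.54 to -0.11, adjusted p = 0.0565) was past the threshold of the false discovery rate and under that of the fold. *Lhx1* was at 136, 138, 141 and 138 CPM in the *Hox*-poor libraries and at 103 to 141 CPM (median 122) in the *Hox*-rich ones (log2 fold change -0.05, interval -0.21 to 0.10). *Lhx1* lies on chromosome 11 from 84518284 to 84525535 (- strand), and *Lhx5* on chromosome 5 from 120431699 to 120441223 (+ strand), where the antisense gene *Gm27199* overlaps its exons on the opposite strand.

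*Skor2* was at 9.95, 9.94, 14.8 and 14.53 CPM in the *Hox*-poor libraries and at 11.7 to 16.1 CPM (median 13.9) in the *Hox*-rich ones. The ranges overlapped, and the log2 fold change of 0.21 had an interval from -0.20 to 0.62. *Prdm13* was at 3.11, 4.76, 3.43 and 2.97 CPM in the *Hox*-poor and at 1.25 to 3.34 CPM (median 2.56) in the *Hox*-rich libraries, with a log2 fold change of -0.14 and an interval from -0.62 to 0.35. *Ptf1a* had a log2 fold change of 0.52 with the wide interval from -0.45 to 1.48 (adjusted p = 0.487), and without male mutant 2, its highest DMH library, 1.39 (adjusted p = 0.163), which passed both thresholds.

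Genes around these 10 were taken by list. Among 11 genes of the excitatory neurons that arise beside them, 3 were higher in *Hox*-rich pieces, *Tlx3* (log2 fold change 1.66, adjusted p = 0.0277), *Atoh1* (0.99, adjusted p = 0.00620) and *Lmx1b* (0.69, adjusted p = 0.0103). *Tlx3* and *Lmx1b* are homeobox genes of dorsal excitatory neurons, and *Atoh1* is the factor of the rhombic lip. *Barhl2*, *Lhx2* and *Lhx9*, which are also used rostral to the hindbrain, were lower (-0.52, -0.56 and -0.52). The median over the list was -0.25.

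Of 12 tested paralogs and partners, *Pax8* (1.45, adjusted p = 0.0105) and *Skor1* (1.18, adjusted p = 0.0253) were higher and *En1*, a gene of the midbrain-hindbrain boundary, was lower (-0.54, adjusted p = 0.0194). *Skor1* was at 8.31 to 15.7 CPM in the *Hox*-poor and at 22.9 to 30.1 CPM in the *Hox*-rich libraries, whereas its paralog *Skor2* overlapped between them. Of the 10 tested genes of the *Ptf1a* complex, its targets and neighbouring progenitors that are reported here, 0 were called by edgeR in either direction. *Rbpj* (-0.21, adjusted p = 0.0279) and *Tcf3* (-0.31, adjusted p = 0.0360), partners in the complex, were the 2 with an unadjusted p under 0.05, and their differences were under the fold threshold. *Kirrel2*, a direct *Ptf1a* target, had a log2 fold change of -0.10 with an interval from -0.55 to 0.34.

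None of 4 inhibitory transmitter genes was called by edgeR. *Slc6a9*, the glial glycine transporter, came nearest (log2 fold change 0.31, adjusted p = 0.0493) and was the only one with an unadjusted p under 0.05, the others being *Gad1*, *Gad2* and *Slc32a1*, the enzymes and the vesicular transporter of GABA. *Gad1* was at 63.5 to 97.0 CPM in the *Hox*-poor and at 87.7 to 125 CPM in the *Hox*-rich libraries. The 7 genes of the cerebellar primordium summed to 999 to 1125 CPM in the *Hox*-poor and 793 to 1000 CPM in the *Hox*-rich libraries, and 1 of them, *En2*, was lower in *Hox*-rich pieces (-0.59, adjusted p = 0.0374). Markers of other tissues moved in part with the sets. The 5 sensory ganglion markers summed to 18.7, 19.4, 22.1 and 88.2 CPM in the *Hox*-poor and 42.7 to 137 CPM in the *Hox*-rich libraries, of which 1, *Sncg*, was called higher (0.95, adjusted p = 0.113). Both tested inner ear markers were called, *Fbxo2* higher (0.63, adjusted p = 0.0486) and *Tectb* lower (-1.18, adjusted p = 0.0736), and the 5 markers of this list summed to 1.97 to 3.31 CPM in the *Hox*-poor and 2.74 to 4.18 CPM in the *Hox*-rich libraries. Of 3 tested cartilage markers *Col9a3* was higher (0.73, adjusted p = 0.00421), with list sums of 83.6 to 96.1 CPM in the *Hox*-poor libraries and of 82.7 to 103 CPM in the *Hox*-rich ones but female mutant 3. Of 5 telencephalic markers *Fezf2* was lower (-0.74, adjusted p = 0.0335), with sums of 61.7 to 83.3 and 48.9 to 99.7 CPM, and of 6 tested eye markers *Rax* was lower (-0.58, adjusted p = 0.185), with sums of 11.2 to 18.3 and 8.40 to 15.01 CPM. Of 3 tested kidney and 5 tested muscle markers 0 were called by edgeR, and 0 had an unadjusted p under 0.05. The part of these tissues in the result was not tested. *Pax2* is also expressed in inner ear and kidney, and the kidney markers summed to at most 4.46 CPM in DMH.

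**Figure D3:**
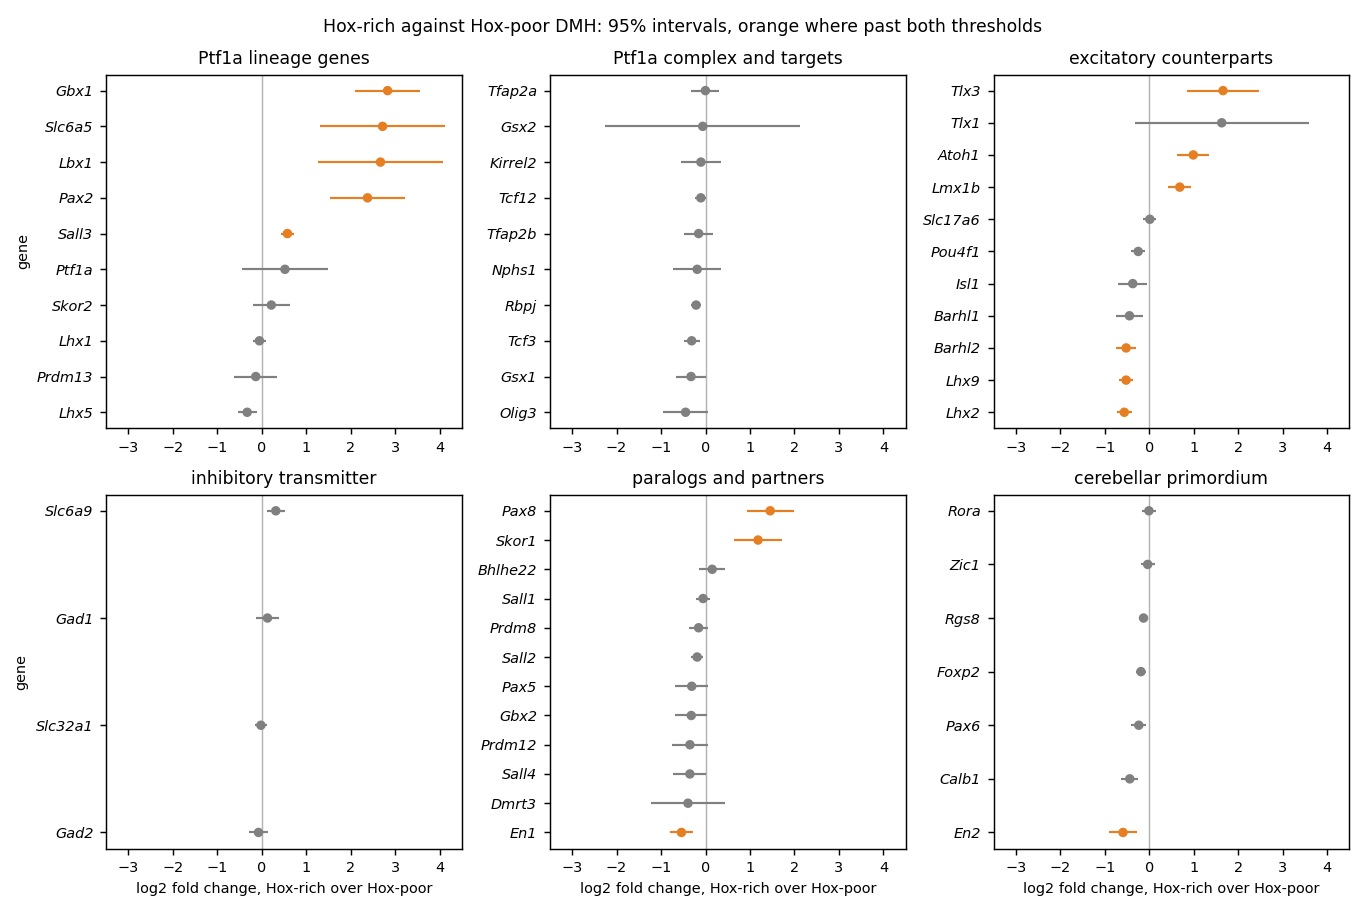
Log2 fold change of *Hox*-rich over *Hox*-poor DMH (point) with its 95% interval (line) for the 10 genes and 5 lists around them, in orange where past both thresholds and in grey otherwise. The 4 largest values of the 10 genes, *Gbx1*, *Slc6a5*, *Lbx1* and *Pax2* at 2.38 to 2.83, exceeded every called gene of the other lists.

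For *Lbx1*, the genes most alike over the 12 DMH libraries (Pearson's r of log2 CPM, genes with a mean CPM over 1) were *Hoxb2* (r = 0.993), *Gm33167* (0.992) and *Hoxa2* (0.991), and for *Slc6a5* they were *Lamp5* (0.992), *Hoxb2* (0.988) and *Gm12688* (0.987). Over the 8 *Hox*-rich libraries alone, r of *Lbx1* was 0.703 with *Hoxb2*, 0.483 with *Hoxa2* and -0.007 with *Gm33167*. That of *Slc6a5* was 0.737 with *Hoxb2*, 0.578 with *Lamp5* and 0.25 with *Gm12688*. For *Skor2* the most alike were *Lhx4* (0.862), *Gm17251* (0.853) and *Evx1* (0.841), with 0.772, 0.819 and 0.721 over the *Hox*-rich libraries. For *Ptf1a*, with at most 23 counts in a library, they were *Chchd7* (0.855), *Gm4673* (0.812) and *Recql5* (0.811). The libraries share piece, depth and dissection, and these values are descriptions of 12 libraries.

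The comparison of genotypes asks whether loss of *Tfap2b* changed these genes. None of the 10 was called between mutants and controls in any of 7 fits of genotype. In female DMH (3 controls, 2 mutants) 0 of 10 were called by edgeR, 1 had an unadjusted p under 0.05, and 0.00596% of 16773 genes were called, with 8.9% at an unadjusted p under 0.05. In male DMH (3 and 3) it was again 0 of 10 with 1 at an unadjusted p under 0.05, and 0.0236% of 16962 genes were called (2.89% at an unadjusted p under 0.05). Over DMH of both sexes 0 of 10 were called (1 at an unadjusted p under 0.05), against 0.0523% of 17223 genes (15% at an unadjusted p under 0.05). DESeq2 and edgeR's likelihood ratio test called 0 of the 10 in each of these 3 as well. The fits share libraries and are not independent.

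In female DMH the fitted differences of 4 genes were large, and so were their errors. *Lbx1* was at 0.797, 15.8 and 21.3 CPM in controls 1 to 3 and at 2.73, 0.568 and 18.6 CPM in mutants 1 to 3, which overlapped. Without mutant 3 its log2 fold change was -3.01 ± 1.79, with an interval from -8.47 to 2.45 (adjusted p = 0.603). *Slc6a5* (0.456, 11.7 and 18.8 CPM in controls, 1.65, 0.674 and 17.6 CPM in mutants) gave -3.21 ± 1.83, *Pax2* (4.67, 41.1 and 44.7 CPM, 7.90, 4.08 and 39.1 CPM) gave -2.37 ± 1.28, and *Gbx1* (1.44, 6.76 and 13.2 CPM, 2.48, 1.14 and 10.1 CPM) gave -2.03 ± 1.16, with adjusted p from 0.594 to 0.603. The low values stand in control 1 and in mutants 1 and 2, the 3 female pieces with a *Hox* sum under 1 CPM.

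Which libraries entered decided these values. With female mutant 3, a *Hox*-rich library, the log2 fold change of *Lbx1* was -0.75 and that of *Slc6a5* was -0.60. Without female control 1, all controls left were *Hox*-rich and both mutants *Hox*-poor, and 4 genes were then called lower in mutants: *Lbx1* (-3.56, adjusted p = 0.0833), *Slc6a5* (-3.76, adjusted p = 0.0130), *Pax2* (-2.88, adjusted p = 0.00668) and *Gbx1* (-2.51, adjusted p = 0.0524). Of all 16848 genes in that fit 6.63% were called and 5.23% were called lower. In that set genotype and *Hox* content cannot be told apart. Without female control 2, the library with Y-linked transcripts, *Lbx1* was at -2.82 and *Slc6a5* at -3.11, and none was called.

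In male DMH the differences were smaller. *Lbx1* was at 22.3, 21.4 and 15.95 CPM in controls and 17.4, 6.16 and 18.1 CPM in mutants (log2 fold change -0.51 ± 0.42), *Slc6a5* at 29.7, 21.5 and 16.7 CPM and 17.8, 6.04 and 19.2 CPM (-0.64 ± 0.48), and both genotypes overlapped. The single low library was the *Hox*-poor male mutant 2. *Pax2* (47.2, 46.7 and 35.7 CPM, then 38.3, 13.7 and 44.8 CPM) and *Gbx1* (11.2, 10.9 and 11.2 CPM, then 9.57, 1.16 and 11.8 CPM) had their low value in the same library. *Ptf1a* had the lowest unadjusted p of the 10 in males, with 0.143, 0.259 and 0.212 CPM in controls and 0.341, 0.429 and 0.327 CPM in mutants (log2 fold change 0.79, interval 0.01 to 1.57, adjusted p = 0.870). Its male libraries did not overlap, whereas in females controls at 0.152, 0.417 and 0.383 CPM overlapped mutants at 0.165, 0.319 and 0.222 CPM.

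The genotype fits were also run with the *Hox* set as a term and within *Hox*-rich pieces. The sets are a cut at 100 CPM, and the *Hox* sum still ran from 0.038 to 15.02 CPM in the *Hox*-poor set. As the 15 *Hox* genes were themselves picked as lower in mutants, these fits cannot tell the piece from the genotype. With the *Hox* set as a term over 11 DMH libraries, the log2 fold change of *Lbx1* was -0.06 (interval -1.30 to 1.18), of *Slc6a5* -0.18 (-1.40 to 1.05), of *Pax2* 0.001 (-0.74 to 0.74) and of *Gbx1* 0.02 (-0.55 to 0.59). Without the term they were -1.32, -1.41, -1.14 and -1.09. Within *Hox*-rich pieces (5 controls, 2 male mutants), *Lbx1* was at -0.16 (-0.53 to 0.22), *Slc6a5* at -0.28 (-1.05 to 0.49), *Pax2* at -0.05 (-0.34 to 0.23) and *Gbx1* at -0.06 (-0.66 to 0.54). With sex as a covariate and no female mutant left, this difference is between male mutants and male controls, and it says nothing about females. All 10 genes overlapped between *Hox*-rich controls and *Hox*-rich mutants. The share of all genes that overlap between these groups was not computed, so this count cannot set the 10 apart from other genes. Each of these 2 fits called 0 of 10 genes and had 0 at an unadjusted p under 0.05, by edgeR and by DESeq2, and each called 0.0228% of the genes tested (17575 within *Hox*-rich pieces and 17555 with the term).

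**Figure D4:**
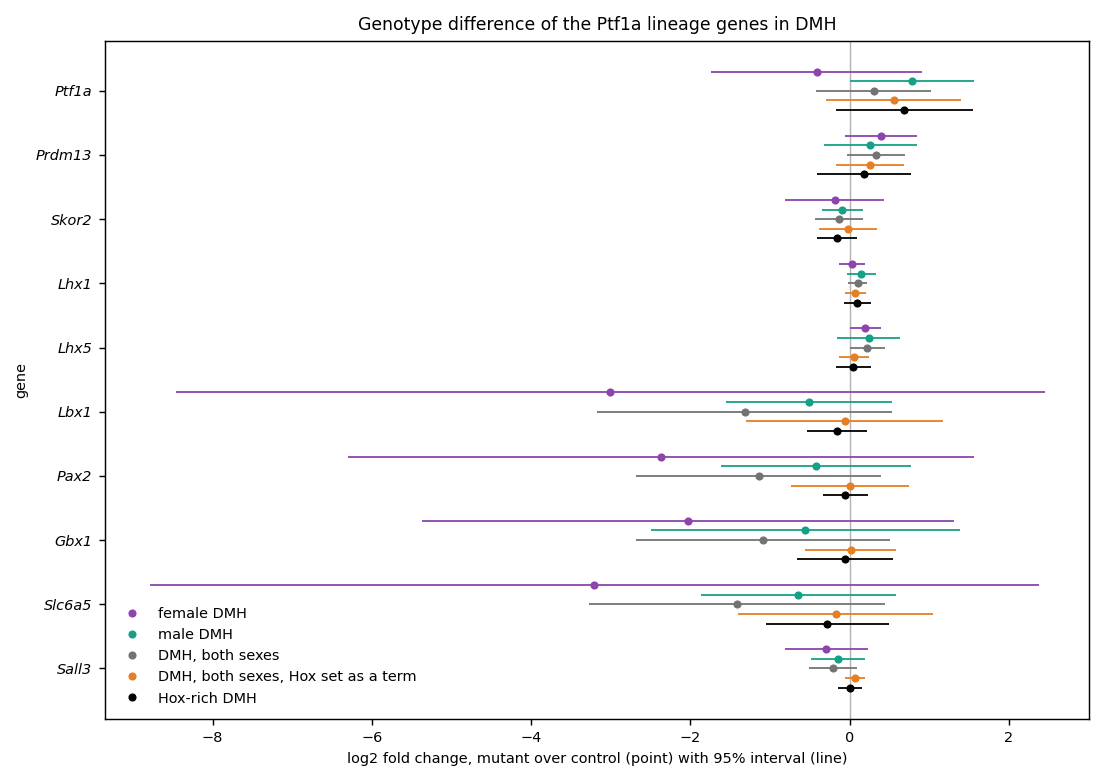
Log2 fold change of mutant over control DMH (point) with its 95% interval (line) for each gene, in 5 fits that share libraries. For *Lbx1*, *Pax2*, *Gbx1* and *Slc6a5* the intervals in female DMH reach from as low as -8.79 to 2.45, and those within *Hox*-rich pieces from -1.05 to 0.54.

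Of the other 6 genes within *Hox*-rich pieces, *Lhx1* was at 0.10 (-0.07 to 0.27), *Lhx5* at 0.05 (-0.18 to 0.27), *Skor2* at -0.16 (-0.40 to 0.09) and *Sall3* at 0.008 (-0.15 to 0.16) on the log2 scale. *Prdm13* was wider at 0.18 (-0.40 to 0.77) and *Ptf1a* widest at 0.69 (-0.17 to 1.55). *Lhx5* was the gene with an unadjusted p under 0.05 in female DMH (log2 fold change 0.20, edgeR quasi-likelihood test, adjusted p = 0.556). There it was at 78.8, 74.2 and 65.1 CPM in controls and at 84.9, 83.7 and 52.7 CPM in mutants. Over both sexes it was 0.23 without the *Hox* term and 0.06 with it. *Skor2* in males was at 15.2, 15.01 and 11.9 CPM in controls and at 12.4, 14.53 and 12.7 CPM in mutants, which overlapped.

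The median log2 fold change of mutants over the 10 genes was -0.35 in female DMH, -0.12 in male DMH and -0.17 over both sexes, against -0.0015, -0.0028 and -0.0025 over all genes tested. It was 0.04 with the *Hox* set as a term and -0.02 within *Hox*-rich pieces, against -1e-04 and -0.0034 over all genes. Among the genes of the *Ptf1a* complex and targets, *Tfap2b* alone was called, lower in mutants, in female, male and *Hox*-rich DMH. Of the excitatory, transmitter, paralog and cerebellar lists none was called in these 3 fits.

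In SP, 5 of the 10 genes passed the filter on low counts (*Prdm13*, *Lhx1*, *Lhx5*, *Gbx1* and *Sall3*), and none was called between genotypes. The transcript of *Tfap2b* itself was not called there either. In female SP 0 of 5 were called by edgeR (1 at an unadjusted p under 0.05), against 0.0181% of 16615 genes (2.58% at an unadjusted p under 0.05), and in male SP 0 of 5 (0 at an unadjusted p under 0.05), against 0% of 16562 genes (605 at an unadjusted p under 0.05). DESeq2 and the likelihood ratio test called 0 of the 5 in either sex. *Prdm13* in female SP was at 0.824, 0.969 and 1.05 CPM in controls and at 1.24, 1.90 and 1.42 CPM in mutants. The groups did not overlap, and the log2 fold change without mutant 3 was 0.74 ± 0.24 (unadjusted p = 0.0122 by edgeR, adjusted p = 1.00). In male SP it was at 1.02, 1.12 and 0.409 CPM in controls and at 1.15, 1.36 and 0.810 CPM in mutants, which overlapped (0.39, interval -0.57 to 1.35).

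The genotype difference was not called as different between the sexes or between the regions for any of the 10. For the interaction with sex in DMH 0 of 10 were called (0 at an unadjusted p under 0.05), against 0% of 17555 genes, 351 of which had an unadjusted p under 0.05. For the interaction with region it was 0 of 10 (again 0 at an unadjusted p under 0.05), against 0.00565% of 17684 genes. DESeq2 called 0 of the 10 for both interactions. The interaction with sex was 2.51 for *Lbx1* with an interval from -1.15 to 6.17 on the log2 scale, so these libraries bound it only loosely.

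*Skor2* (chromosome 18 from 76856405 to 76900342, + strand) and *Sall3* (the same chromosome from 80966376 to 80986771, - strand) share a chromosome. *Slc6a5* lies on chromosome 7 from 49910146 to 49963856 (+ strand), *Gbx1* on chromosome 5 from 24502757 to 24527202 (- strand), *Prdm13* on chromosome 4 from 21677480 to 21685963 (- strand) and *Ptf1a* on chromosome 2 from 19445663 to 19447501 (+ strand), all protein coding. The exons of *Ptf1a* are overlapped on the opposite strand by *Ptf1aos*, and the stranded counts used here keep the strands apart.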

How the data were processed

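RNA was sequenced from 24 stranded libraries (dUTP method) of polyadenylated RNA. The authors aligned read pairs with STAR to mm10 and deposited raw counts per gene for each library, without normalization. Their processing notes, per the labels, name cutadapt 2.4, STAR 2.6.1d and edgeR, and the gene annotation release is not given in the sources used here. Of 54446 identifiers, 54409 had a symbol in GENCODE vM21 (GRCm38), which also gave coordinates and exon lengths. Lines that name no gene were kept out of library sizes. They held 5.46 to 9.98% (unmapped), 4.96 to 7.85% (multimapping), 4.68 to 7.46% (no feature) and 1.10 to 1.61% (ambiguous) of the fragments. Counts of the sense strand under the dUTP method served for every value, and 1 column per table was not used.

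Differential expression was tested with edgeR 4.0.16 in R 4.3.3 (TMM, filterByExpr, robust quasi-likelihood), 1 fit per comparison over all genes, with Benjamini-Hochberg adjustment. A call needed a false discovery rate below 0.2 and a log2 fold change above 0.5 in size, as in the study. SE was the size of the log2 fold change over the root of F, and 95% intervals use its t distribution. Alternatives were RLE size factors, no filter, a minimum of 10 counts in each library, counts without strand, edgeR's likelihood ratio test, DESeq2 1.42.0, a false discovery rate under 0.05, female mutant 3 included, the replicate number as a block and each library left out. SP and DMH of one number came from the same embryo, and their deviations from the group means correlated by r = 0.096 to 0.546. The values printed for DMH against SP come from the fit without a block, and the fit with the embryo as a block is given where it changes a call. The methods were tested on simulated data. The lowest chi-square per gene between libraries of a condition was 9.62 (24 pairs), so none was a copy. The members and lists were chosen with earlier results of these data known. All 10 genes are named, of each list those called between the *Hox* sets or genotypes and at most 4 examples (list genes called between regions and the 15 *Hox* genes behind the sets are not all named), and the 3 genes most alike *Ptf1a*, *Lbx1*, *Slc6a5* and *Skor2* (an offset of 0.1 CPM before log2). The lists held the *Ptf1a* complex and targets, excitatory counterparts, inhibitory transmitter genes, paralogs and partners, the cerebellar primordium, 15 and 8 *Hox* genes, and markers of eye, inner ear, kidney, sensory ganglia, muscle, cartilage, telencephalon and Y chromosome. 1 listed symbol had no match, and 1 gene of the list of the *Ptf1a* complex and targets is not reported here. Figures used matplotlib 3.10.9.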

Additional observations from a re-analysis of the deposited data

How the results depend on the processing

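Of 203 alternatives for the 11 counts of called genes, 200 kept the count within 1.5 times, and no value of a single gene that was called changed sign. The exceptions were these. The count in female DMH was 4 without female control 1, and the leave-one-out counts there ranged from 0 to 4. The count for DMH against SP was 5 instead of 9 when at least 10 counts in every sample were required, because *Lbx1*, *Pax2*, *Skor2* and *Slc6a5* were then not tested, and it ranged from 8 to 9 with 1 library left out. The count for *Hox*-rich against *Hox*-poor DMH was 3 instead of 5 with the replicate number as a block, where *Lbx1* (log2 fold change 2.82, adjusted p = 0.327) and *Slc6a5* (2.42, adjusted p = 0.339) were no longer called, and it ranged from 5 to 6 with 1 library left out. With the embryo as a block the count for DMH against SP was again 9, with *Ptf1a* in place of *Gbx1*, and the block changed no other count. Control and mutant libraries of one number correlated in their deviations from the group means by r = -0.211 to 0.591, and not every pair was over 0.1. The numbers were not taken to pair them in the main fits, and whether they do is not given. The other counts were 0 in each alternative run. *Ptf1a* had few counts, at most 23 in a library, and the genotype fits held only 2 female mutants and 2 *Hox*-rich mutants. The part of depth and of group size in the results was not tested.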

Other observations

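The *Hox* genes behind the group of 15 were seen in a subset of the *Hox*-rich pieces. The sum of 8 genes of paralog groups 9 to 13 was 0 CPM in female control 2 and 2.99 to 36.3 CPM in the other 7 *Hox*-rich libraries, and at most 0.031 CPM in the *Hox*-poor ones. Female control 2 was also the *Hox*-rich library with the lowest *Hox* sum (346 CPM) and the lowest level of *Lbx1* (15.8 CPM), *Gbx1* (6.76 CPM) and *Slc6a5* (11.7 CPM), but not of *Pax2* (41.1 CPM, where male control 3 was lowest at 35.7 CPM) or *Sall3*. Male control 1 held the highest sum of groups 9 to 13 (36.3 CPM) and the highest *Lbx1* (22.3 CPM), *Pax2* (47.2 CPM) and *Slc6a5* (29.7 CPM). These are values of single libraries with no test.

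*Atoh1*, the rhombic lip factor on the excitatory side, was at 1.85 to 3.28 CPM in the 4 *Hox*-poor and at 3.44 to 5.32 CPM in the 8 *Hox*-rich DMH libraries, which did not overlap. It was at 0 to 0.0329 CPM in SP.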
